A study of Homo sapiens with 9 samples.

Results

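The ERBB family set examined here held 10 of the 59452 genes in the table, chosen by symbol with earlier results of these data known. It held 4 receptors (*EGFR*, *ERBB2*, *ERBB3* and *ERBB4*), 5 ligands (*AREG*, *EREG*, *TGFA*, *HBEGF* and *NRG1*) and 1 inhibitor (*ERRFI1*). Their transcripts were measured by bulk RNA-seq in MDA-MB-453 cells, an established human breast cancer line of wild-type genotype per the labels. There were 9 libraries in 3 groups of 3 biological replicates: attached cells with vehicle (DMSO), cells in forced suspension on poly-hema coated plates with vehicle, and cells in forced suspension with 10 µM AT0174, a dual inhibitor of the tryptophan-degrading enzymes TDO2 and IDO1. All were collected at 48 h. AT0174 was not given to attached cells, and a single cell line was used, so each comparison describes this line alone. The first comparison addressed what loss of attachment does to these transcripts, and the second what AT0174 does in suspended cells.

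ERBB receptors are tyrosine kinases of the cell surface that act in pairs. Ligands such as amphiregulin (*AREG*), epiregulin (*EREG*), TGFα (*TGFA*) and HB-EGF (*HBEGF*) bind EGFR, and some of them also ERBB4, whereas neuregulin 1 (*NRG1*) binds ERBB3 and ERBB4. ERBB2 has no known ligand of its own and ERBB3 has little kinase activity, so the pair of ERBB2 and ERBB3 joins a strong kinase to a receptor rich in binding sites for PI3K. ERRFI1, also called MIG6, is an inhibitor that binds the kinase domain of ERBB receptors, and its gene is induced by signaling through ERK. In breast tissue the family controls growth and survival of the epithelium, and ERBB2, or HER2, is one of the proteins by which breast cancers are classified.

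The libraries held between 36649997 and 48019126 estimated counts. Levels are given as TPM, which accounts for transcript length and allows genes to be compared with each other, and differences between groups as CPM scaled by TMM. All 9 libraries entered one edgeR quasi-likelihood fit over the 15528 genes that passed its filter on low counts, and a gene was called at a Benjamini–Hochberg adjusted p under 0.05. Mitochondrially encoded transcripts took 7.56% to 9.32% of counts in attached libraries, 4.05% to 4.34% in suspension with vehicle and 3.73% to 5.51% with AT0174, and their part in the results was not tested. In bulk samples, fewer cells that express a gene and less RNA of it per cell cannot be told apart.

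The 10 genes fell into widely separated levels. *ERBB2* was the highest in all 3 groups, at 402 ± 4.83 TPM in attached cells, 424 ± 12.3 TPM in suspension with vehicle and 411 ± 2.74 TPM with AT0174 (SD, n = 3 each). *ERBB3* was the next at 118 ± 2.37, 122 ± 6.83 and 121 ± 5.33 TPM, and *ERRFI1* the third at 43.5 ± 2.01, 43.7 ± 0.905 and 48.0 ± 2.45 TPM in the same order. *AREG* stood at 3.96 ± 0.371, 4.47 ± 0.197 and 4.23 ± 0.844 TPM. The libraries of each of these 4 genes did not overlap with those of the next gene in any group. In attached cells, 325 of the 15528 tested genes were at or above the level of *ERBB2* when ranked by mean TPM, itself included, and 1422 were at or above that of *ERBB3*.

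**Figure D1:**
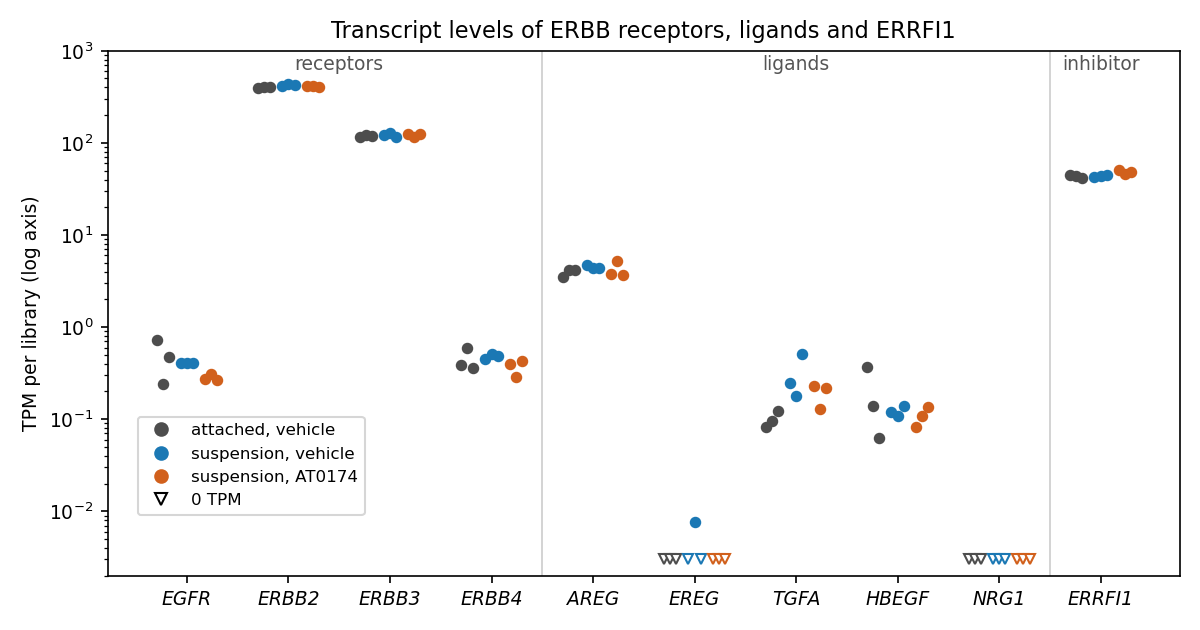
TPM of the 10 genes in each of the 9 libraries on a log axis, with 1 point per library and open triangles for 0 TPM. *ERBB2*, *ERBB3*, *ERRFI1* and *AREG* stand apart in that order, all other members lie below 1 TPM, and *NRG1* is at 0 in all 9 libraries.

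Below *AREG*, the order was less certain. *EGFR* and *ERBB4* overlapped in attached cells (0.477 ± 0.242 and 0.449 ± 0.124 TPM) and with AT0174 (0.284 ± 0.022 and 0.371 ± 0.0768 TPM). In suspension with vehicle, *ERBB4* at 0.481 ± 0.0279 TPM lay above *EGFR* at 0.405 ± 0.0026 TPM without overlap. *TGFA* ranged from 0.0826 to 0.509 TPM and *HBEGF* from 0.0631 to 0.364 TPM over the 9 libraries. *EREG* had 1 count in 1 library of suspended cells with vehicle and 0 in the other 8, and *NRG1* had 0 counts in all 9. Where no read was counted, as many as 3 counts could have been missed by chance, equal to 0.0625 to 0.0819 CPM before scaling. This limit is for counting error only.

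The labels describe the line as triple-negative, a class defined by low estrogen receptor, progesterone receptor and HER2. *ESR1* was at most 0.141 TPM and *PGR* at most 0.306 TPM in any library, whereas *ERBB2* was at least 398 TPM. HER2 status is scored on protein or gene copies, and neither was measured here. Luminal epithelial transcripts were abundant, with *KRT8* at 779 to 877 TPM and *GATA3* at 903 to 1077 TPM. Of the basal epithelial markers, *KRT5*, *KRT14*, *KRT17* and *KRT6A* were at most 0.246 TPM and *TP63* was at most 3.69 TPM. Of the markers of other cell types, *CD3E* was at 0, *PTPRC*, *PECAM1*, *VWF* and *PDGFRB* were at most 0.276 TPM, *CD68* was at 1.26 to 4.63 TPM and *COL1A1* at 51.5 to 66.0 TPM. In suspension, *COL1A1* fell by 0.28 on the log2 scale (adjusted p = 0.00182), and 5 of the 10 luminal markers rose, where 10.4% of all tested genes were called higher. With AT0174 no marker of these lists was called, and 2 had an unadjusted p under 0.05. The part of these markers in the results was not tested.

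Of the 10 members, 7 passed the filter on low counts and were tested: the 4 receptors, *AREG*, *TGFA* and *ERRFI1*. In suspension against attachment, 1 of the 7 was called, *ERRFI1*, which fell, where 21.2% of all tested genes were called, 10.4% higher and 10.8% lower. With AT0174 against vehicle in suspension, 1 of the 7 was called, again *ERRFI1*, which rose, where 0.779% of all tested genes were called, 0.522% higher and 0.258% lower. At an unadjusted p under 0.05, 1 of the 7 passed in the first comparison and 3 in the second, against 34.1% and 9.02% of all tested genes.

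**Figure D2:**
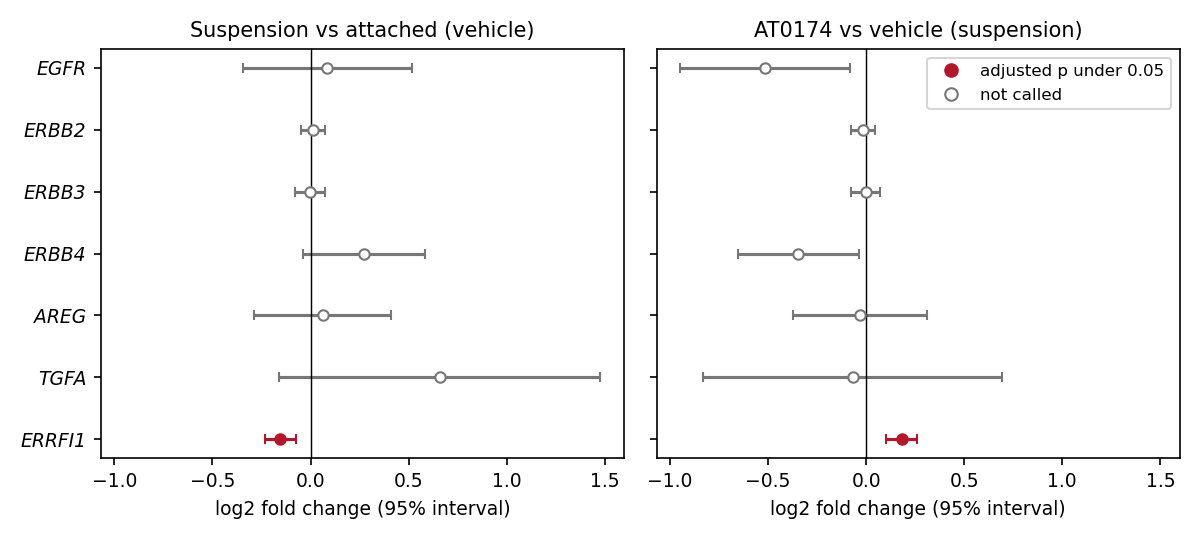
Log2 fold changes of the 7 tested genes in each comparison, with 95% intervals from edgeR, filled where the adjusted p was under 0.05. *ERRFI1* lies below 0 in suspension and above 0 with AT0174, the intervals of *ERBB2* and *ERBB3* are within 0.08 of 0 in both panels, and those of *EGFR* and *ERBB4* with AT0174 lie below 0 without a call.

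Among the receptors, *ERBB2* (chr17:39687914-39730426, GRCh38, GENCODE release 44) was at 1029, 1045 and 1082 CPM in attached replicates 1 to 3, 1057, 1073 and 1056 CPM in suspension with vehicle, and 1052, 1045 and 1056 CPM with AT0174. On the CPM scale the groups overlapped. In TPM, which was not scaled by TMM, the attached libraries (398 to 407) lay below those of suspension with vehicle (412 to 436) and with AT0174 (409 to 414). The log2 fold change was 0.01 in suspension (95% interval −0.05 to 0.08, adjusted p = 0.77) and −0.01 with AT0174 (−0.08 to 0.05, adjusted p = 0.94). As folds, the intervals run from 0.968 to 1.05 and from 0.949 to 1.03.

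*ERBB3* (chr12:56076799-56103505), the partner of ERBB2 in the pair that signals to PI3K, was at 312, 326 and 309 CPM in attached cells, 319, 325 and 302 CPM in suspension with vehicle, and 319.7, 312 and 312 CPM with AT0174. These ranges overlapped too. Its log2 fold change was −0.0013 in suspension (95% interval −0.08 to 0.07, adjusted p = 0.98) and −0.0024 with AT0174 (−0.08 to 0.07, adjusted p = 1.00).

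The proportion of the 2 abundant receptors was therefore compared within each library. The ratio of *ERBB2* to *ERBB3* in TPM was 3.41, 3.30 and 3.46 in attached cells, 3.36, 3.39 and 3.68 in suspension with vehicle, and 3.34, 3.56 and 3.28 with AT0174. Its mean was 3.39 ± 0.0815, 3.48 ± 0.178 and 3.39 ± 0.146 (SD, n = 3 each). The log2 ratio of *ERBB3* to *ERBB2* differed by −0.03 in suspension (two-sided exact permutation test, p = 0.7) and by 0.03 with AT0174 (p = 0.5, same exact test), where the smallest p that 3 against 3 libraries allow is 0.1. Both signs turned when suspension vehicle replicate 3 was left out, to differences of 0.0077 and −0.0082. These ratios use the TPM of all transcripts of each gene. By the leading transcript of each gene alone, the log2 ratio of *ERBB3* to *ERBB2* was lower in every library. It was then −2.28 to −1.99 over the 9 libraries, against −1.88 to −1.72 by all transcripts.

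The 2 scarce receptors varied more between libraries. *EGFR* (chr7:55019017-55211628), the receptor for most of the ligands measured here, had 102, 61 and 66 counts in attached cells, 90, 84 and 97 in suspension with vehicle and 67, 69 and 65 with AT0174. On the CPM scale the attached libraries were at 2.67, 1.69 and 1.70, the suspended libraries with vehicle at 2.33, 1.90 and 2.21, and those with AT0174 at 1.39, 1.65 and 1.47. All 3 AT0174 libraries lay below all 3 of suspension with vehicle, and attached replicate 1 lay above the other 8 libraries. The log2 fold change with AT0174 was −0.51 (standard error 0.200, unadjusted p = 0.024), a 29.9% lower level, but over all genes the adjusted p was 0.43 and the gene was not called. In suspension against attachment it was 0.09 (standard error 0.198, adjusted p = 0.80), and the sign turned in the fits without attached replicate 2 or 3 (−0.02 in each) and with counts rebuilt from TPM (−0.33).

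*ERBB4* (chr2:211375717-212538841), a neuregulin receptor associated with differentiation of the mammary epithelium, was at 3.37, 2.93 and 3.22 CPM in attached cells and at 3.64, 4.01 and 3.85 CPM in suspension with vehicle. With AT0174 it was at 3.21, 2.39 and 3.45 CPM. The libraries of suspension with vehicle were above those of both other groups, without overlap. The log2 fold change was 0.27 in suspension (standard error 0.143, adjusted p = 0.20) and −0.35 with AT0174 (standard error 0.141, unadjusted p = 0.030, adjusted p = 0.47), so neither was called. With counts rebuilt from TPM the first value was 0.0077, and without AT0174 replicate 2 the second was −0.21. Both comparisons use the same 3 libraries of suspended cells with vehicle, so their opposite signs are not independent of each other.

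Libraries of the 2 groups did not overlap for 2 of the 7 tested members in suspension, *ERBB4* and *ERRFI1*, the first higher and the second lower, where 38.1% of all tested genes did not overlap (19.4% higher and 18.7% lower). With AT0174 the number was 3 of 7, *EGFR*, *ERBB4* and *ERRFI1*, the first 2 lower and the last higher, where it was 15.4% of all tested genes (7.75% higher and 7.66% lower).

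**Figure D3:**
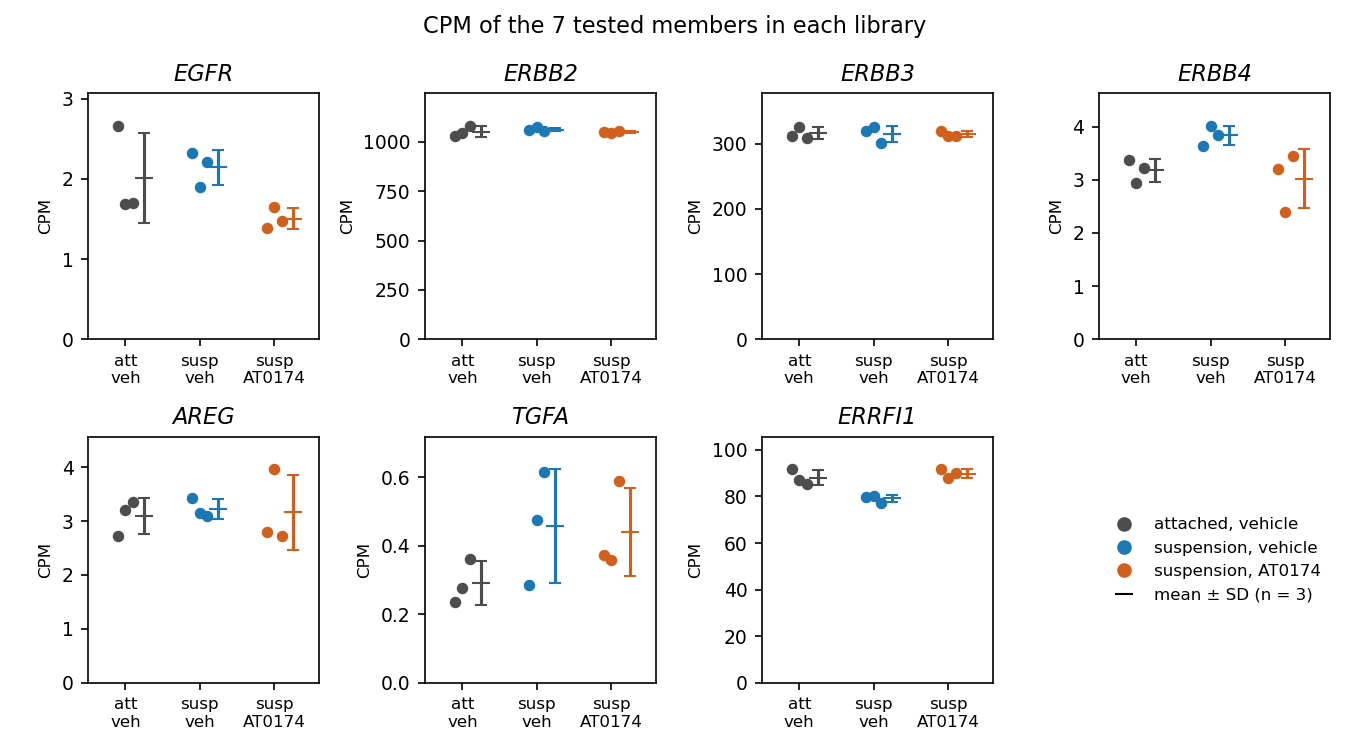
CPM of the 7 tested genes in attached cells with vehicle (att veh), suspension with vehicle (susp veh) and suspension with AT0174, with 1 point per library and the mean ± SD beside them (n = 3), on axes that start at 0. *ERBB2*, *ERBB3* and *AREG* overlap between groups, and *ERRFI1* is lower in the 3 libraries of suspension with vehicle than in the other 6.

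Among the 5 member ligands, *AREG* (chr4:74445136-74455005) was the only one above 1 TPM. Its product, amphiregulin, is made as a membrane-bound precursor and is the main EGFR ligand of mammary duct development. It was at 2.72, 3.21 and 3.35 CPM in attached cells, 3.44, 3.15 and 3.10 CPM in suspension with vehicle, and 2.80, 3.96 and 2.72 CPM with AT0174. On the CPM scale all groups overlapped, with AT0174 replicate 2 the highest of the 9 libraries. In TPM, which was not scaled by TMM, the attached libraries (3.53 to 4.21) lay below those of suspension with vehicle (4.33 to 4.70). The log2 fold change was 0.06 in suspension (95% interval −0.29 to 0.41, adjusted p = 0.83) and −0.03 with AT0174 (−0.37 to 0.31, adjusted p = 0.98). As folds, the intervals run from 0.820 to 1.33 and from 0.771 to 1.24.

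The 250 bases before the start of *AREG* (RefSeq, GRCh38.p14, chr4:74444886-74445135, plus strand) are shown because it was the only one of the 5 member ligands above 1 TPM and held the motif TGACGTCA, the binding sequence of CREB, which is rare in promoters. Capitals mark the motifs found:
AREG: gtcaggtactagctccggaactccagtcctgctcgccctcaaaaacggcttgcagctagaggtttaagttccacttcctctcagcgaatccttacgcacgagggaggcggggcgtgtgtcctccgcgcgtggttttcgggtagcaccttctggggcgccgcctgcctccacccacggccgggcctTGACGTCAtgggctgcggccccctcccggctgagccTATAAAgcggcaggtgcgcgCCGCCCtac
The first base of TGACGTCA is 65 bases before the start and that of TATAAA, the TATA box, is 29 bases before it. The GC box, GGGCGG, is there on the other strand, so that the printed strand shows its reverse complement 9 bases before the start. On both strands, TGACGTCA occurs in 1.65% of 35116 windows of 250 bases, the TATA box in 10.7% and the GC box in 42.6%. None of these motifs overlaps another here.

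*TGFA* (chr2:70447284-70554193), a ligand of EGFR, had 9, 10 and 14 counts in attached cells, 11, 21 and 27 in suspension with vehicle and 18, 15 and 26 with AT0174. On the CPM scale the groups overlapped, and the spread within suspended cells with vehicle was more than 2-fold. The log2 fold change was 0.66 in suspension (standard error 0.377, adjusted p = 0.24) and −0.07 with AT0174 (standard error 0.351, adjusted p = 0.98). The first value was 0.39 without suspension vehicle replicate 3. The second turned positive without suspension vehicle replicate 3 (0.20) or AT0174 replicate 1 (0.042) or 2 (0.055), and was −0.31 without suspension vehicle replicate 1 and −0.34 without AT0174 replicate 3. The first interval runs from −0.16 to 1.48 on the log2 scale, or from 0.895 to 2.79 as folds. No difference was therefore shown, and a rise as large as its upper end was not excluded.

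*HBEGF* (chr5:140332843-140346603), which binds EGFR and ERBB4, did not pass the filter. It had 22, 8 and 4 counts in attached cells, 7, 7 and 9 in suspension with vehicle, and 6, 7 and 9 with AT0174. Attached replicate 1 was the highest of the 9, as it was for *EGFR*. *EREG* (chr4:74365145-74388749), a neighbor of *AREG* on chromosome 4, and *NRG1*, the ligand of ERBB3 and ERBB4, were at or near 0 as given above, and no fold change was computed for either.

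*ERRFI1* (chr1:8004404-8026309, minus strand) was the only member called in either comparison. It was at 91.8, 87.1 and 85.4 CPM in attached cells, 79.8, 80.3 and 77.3 CPM in suspension with vehicle, and 91.6, 87.8 and 89.9 CPM with AT0174. All 3 libraries of suspension with vehicle were below the other 6. The group means were 88.1 ± 3.32, 79.1 ± 1.62 and 89.8 ± 1.89 CPM (SD, n = 3 each).

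In suspension, *ERRFI1* fell by 0.15 on the log2 scale (standard error 0.0365, 95% interval −0.23 to −0.08, adjusted p = 0.0112), a 10.2% lower level. With AT0174 it rose by 0.18 (standard error 0.0362, 95% interval 0.10 to 0.26, adjusted p = 0.0388), a 13.5% higher level. Both comparisons share the libraries of suspension with vehicle, and the attached and AT0174 libraries overlapped.

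The call with AT0174 was lost whichever of the 6 libraries was left out, with adjusted p-values from 0.076 to 0.19 and log2 fold changes from 0.16 to 0.20. The call in suspension held in all 6 such fits, with adjusted p-values from 0.0148 to 0.0498. Both calls were lost with counts rebuilt from TPM, which accounts for the lengths of the transcripts present and also changes the number of counts per gene. The log2 fold change in suspension was then −0.09 (adjusted p = 0.24) and that with AT0174 0.18 (adjusted p = 0.34). Why the calls were lost was not tested. The TPM values themselves were not scaled by TMM, so their overlap between groups is not on the scale of the CPM values. In TPM, *ERRFI1* was at 45.3, 43.9 and 41.4 in attached cells and at 42.8, 43.8 and 44.6 in suspension with vehicle, which overlapped. With AT0174 it was at 50.3, 45.4 and 48.2 TPM.

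**Figure D4:**
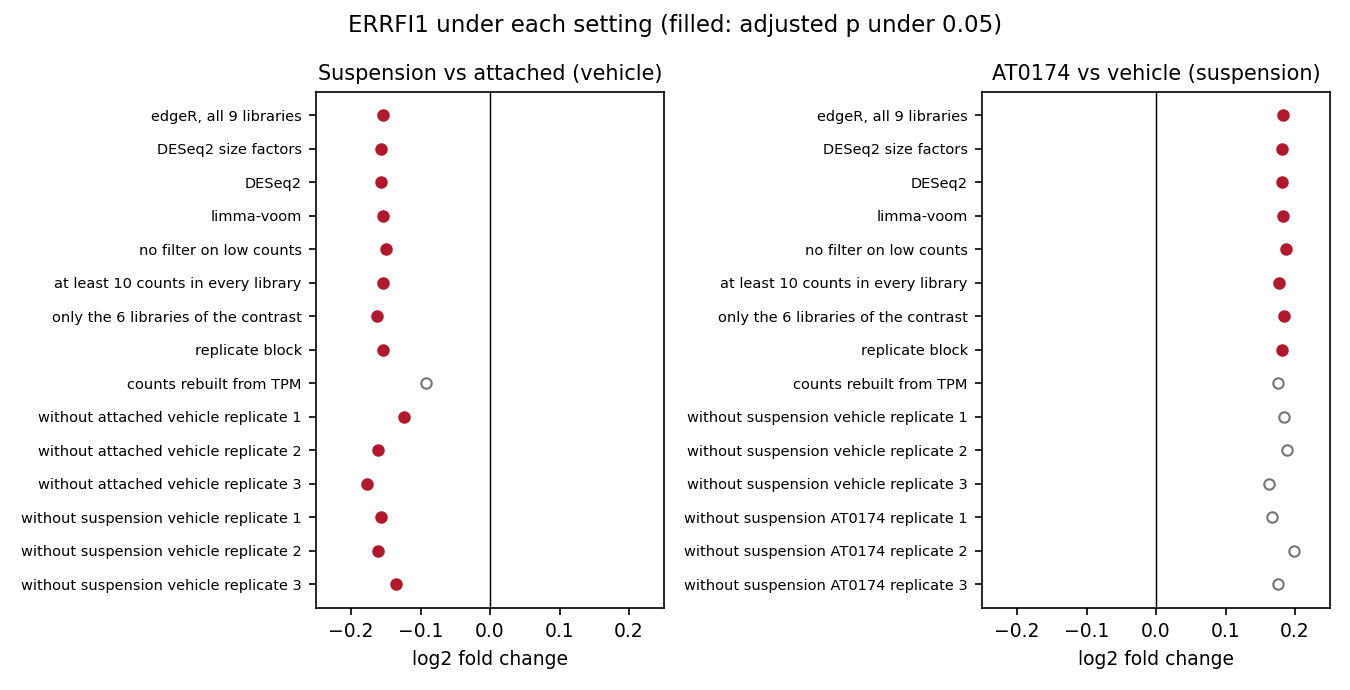
Log2 fold change of *ERRFI1* in each comparison under the edgeR fit of all 9 libraries and 14 other settings, filled where the adjusted p was under 0.05. All values in suspension are negative and all values with AT0174 positive. With AT0174 the points are open with counts rebuilt from TPM and in the 6 fits that each left out 1 library.

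Most *ERRFI1* signal came from transcript ENST00000377482, which held 88.2% of its TPM over all libraries. This protein-coding transcript was at 39.5 ± 2.42 TPM in attached cells, 38.0 ± 1.08 TPM in suspension with vehicle and 41.7 ± 1.66 TPM with AT0174. The other transcripts together held 9.29% ± 2.00, 13.1% ± 3.49 and 12.9% ± 1.01 of the gene's TPM (SD, n = 3 each). The share was highest in suspension vehicle replicate 3, at 17.1%, and no test of these shares was made.

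The 250 bases before the start of *ERRFI1* (RefSeq, GRCh38.p14, chr1:8026310-8026559, minus strand) are shown because it was the only member whose transcript level was called. Capitals mark the GC box, GGGCGG, whose first base is 70 bases before the start:
ERRFI1: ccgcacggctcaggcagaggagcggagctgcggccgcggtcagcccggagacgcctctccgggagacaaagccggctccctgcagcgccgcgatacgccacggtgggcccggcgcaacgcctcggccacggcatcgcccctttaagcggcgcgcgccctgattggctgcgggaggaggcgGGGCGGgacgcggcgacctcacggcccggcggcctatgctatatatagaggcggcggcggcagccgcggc
The same search on both strands found neither the exact letters of the TATA box searched nor the CREB sequence in this window, and not the AP-1 element TGACTCA, which occurs in 4.2% of the 35116 windows. It also found neither the ETS motif CCGGAAGT, which occurs in 3.42% of them, nor TGACNNNGC, the core of the antioxidant response element, which occurs in 10.9%. Windows were matched for 8 of the 10 members, and *ERBB3* and *NRG1* had none.

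Over all genes compared with *ERRFI1*, those whose log2 CPM followed it most closely over the 9 libraries were *ACAT2* (Pearson r = 0.962), *INPP5F* (r = 0.929) and *GPRC5B* (r = 0.914), of 12530 genes with at least 50 normalized counts. The correlations are a description, since the libraries share the 3 conditions. *GPRC5B*, an orphan receptor of the G protein-coupled family, had log2 fold changes of −0.59 in suspension (adjusted p = 0.000692) and 0.61 with AT0174 (adjusted p = 0.00233). *ACAT2*, an acetyl-CoA acetyltransferase, had −0.10 (adjusted p = 0.0537) and 0.10 (adjusted p = 0.36), and *INPP5F*, a phosphoinositide phosphatase, had −0.09 (adjusted p = 0.24) and 0.13 (adjusted p = 0.48). With counts rebuilt from TPM, the adjusted p of *GPRC5B* with AT0174 was 0.23.

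The transcripts behind the receptor levels differed in number. *ERBB2* had a leading transcript, ENST00000269571, with 63.3% ± 0.482 of its TPM in attached cells, 67.8% ± 0.925 in suspension with vehicle and 66.3% ± 4.38 with AT0174 (SD, n = 3 each). *ERBB3* was split among ENST00000267101 with 50.8% of TPM over all libraries, ENST00000546884 with 14.2% and ENST00000415288 with 13.3%. The second of these is annotated as a retained intron of 660 bases, so part of the *ERBB3* TPM is assigned to a transcript that does not encode the receptor. *AREG*, *EREG* and *HBEGF* each had a single transcript with at least 10% of their TPM. *EGFR*, *ERBB4* and *TGFA* were too low for their transcript shares to be read, with standard deviations of up to 42.5 percentage points.

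Other genes were taken from 8 lists, called the pathway lists here, that held 100 genes in all, 92 of them tested. The last list holds neighbors of *ERBB2* on chromosome 17, chosen by position, so the shares below are not of the pathway alone. In suspension, 21 of the 92 were called (22.8%, against 21.2% of all tested genes), 8 higher and 13 lower, and their median log2 fold change was 0.02 against −0.00025 over all tested genes. The number called was 10 without attached replicate 3, 11 without suspension vehicle replicate 2 and 10 with counts rebuilt from TPM. Of the 21, 8 were called in every one of the 14 other settings: *NRG3*, *RHBDF1*, *CNIH1*, *GRB2*, *PLCG1*, *DUSP6*, *CCND1* and *EPHA2*. With AT0174, 1 of the 92 was called (1.09%, against 0.779%), and 12 had an unadjusted p under 0.05. With limma-voom the gene called was the same, *DUSP6*, and with DESeq2 *RHBDF1* and *GRB2* were called as well. Both tools called *ERRFI1* and no receptor or ligand among the members in either comparison.

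**Figure D5:**
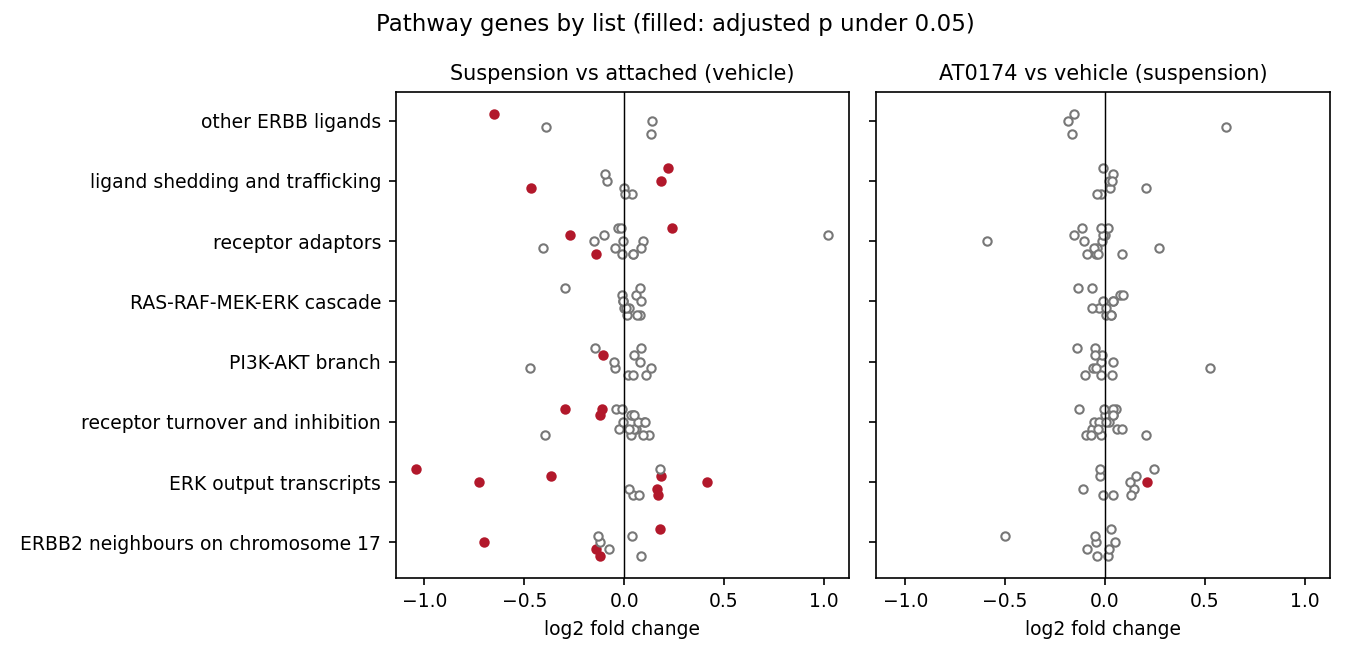
Log2 fold changes of the tested genes of each of the 8 pathway lists in both comparisons, with 1 point per gene, filled where the adjusted p was under 0.05. In suspension the ERK output transcripts hold 7 filled points on both sides of 0 and the RAS-RAF-MEK-ERK cascade holds none, and with AT0174 a single point, *DUSP6*, is filled.

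Among the other ERBB ligands, 1 of the 4 tested was called in suspension (25%, against 21.2% of all tested genes). None was called with AT0174, where 1 had an unadjusted p under 0.05. *NRG3*, a neuregulin that binds ERBB4, fell in suspension. It was at 7.89, 8.60 and 8.19 CPM in attached cells, 5.27, 4.602 and 5.83 CPM in suspension with vehicle and 4.64, 4.82 and 4.65 CPM with AT0174. Its log2 fold change was −0.65 in suspension (standard error 0.0962, adjusted p = 0.000907) and −0.15 with AT0174 (adjusted p = 0.71). At 4.21 to 4.45 TPM in attached cells, *NRG3* was at a level like that of *AREG* and was the most abundant neuregulin transcript, with *NRG2* at most 0.211 TPM and *NRG4* at most 0.0152 TPM. *EGF* and *BTC* were at most 0.638 and 0.941 TPM.

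Of the genes that release or transport ligands, 3 of 8 tested were called in suspension (37.5%, against 21.2% of all tested genes). *RHBDF1*, which encodes an inactive rhomboid that guides the ligand-releasing protease ADAM17, fell from 84.2 ± 5.51 to 61.0 ± 2.01 CPM (log2 fold change −0.46, adjusted p = 0.000399). Its relative *RHBDF2* rose from 29.8 ± 1.05 to 33.97 ± 0.776 CPM (0.19, adjusted p = 0.0341), although this call was lost in 7 of the 14 other settings. *CNIH1*, a cargo receptor for the export of TGFα-type ligands, rose by 0.22 (adjusted p = 0.0026). *ADAM17* and *ADAM10*, the proteases that release the ligands, had log2 fold changes of −0.08 (adjusted p = 0.23) and 0.04 (adjusted p = 0.56). With AT0174, edgeR and limma-voom called no gene of this list and DESeq2 called *RHBDF1*, which had a log2 fold change of 0.21 by edgeR (unadjusted p = 0.00452, adjusted p = 0.20) and was the 1 gene with an unadjusted p under 0.05.

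Of the 16 adaptors that dock on the receptors, 3 were called in suspension (18.8%, against 21.2% of all tested genes). With AT0174, edgeR and limma-voom called none and DESeq2 called *GRB2*, and 3 had an unadjusted p under 0.05 by edgeR. *GRB2*, which links receptors to RAS activation, rose from 565 ± 5.18 to 667 ± 11.9 CPM (log2 fold change 0.24, adjusted p = 0.000159). *PLCG1*, a phospholipase bound by activated receptors, fell from 184 ± 12.5 to 153 ± 2.58 CPM (−0.27, adjusted p = 0.00204). *GRB7*, an adaptor encoded beside *ERBB2*, had a log2 fold change of −0.14 (adjusted p = 0.039), a call lost in 6 of the 14 other settings.

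The cascade from RAS to ERK had 13 tested genes, of which none was called by edgeR, DESeq2 or limma-voom in either comparison. By edgeR, 2 in suspension and 1 with AT0174 had an unadjusted p under 0.05. Of all tested genes, edgeR called 21.2% in suspension and 0.779% with AT0174, and 34.1% and 9.02% had an unadjusted p under 0.05. In the PI3K-AKT branch, 1 of 12 was called in suspension (8.33%, against 21.2% of all tested genes). It was the regulatory subunit *PIK3R2* (−0.10, adjusted p = 0.0434, lost in 8 of the 14 other settings). Of 20 genes of receptor turnover and inhibition, 3 were called in suspension (15%, against 21.2% of all tested genes). All 3 were lower, where 10.8% of all tested genes were called lower. *PTPRK*, a receptor phosphatase known to dephosphorylate EGFR, fell from 107 ± 1.78 to 87.5 ± 2.89 CPM (−0.30, adjusted p = 0.000174), and this call was lost with counts rebuilt from TPM (−0.14, adjusted p = 0.29). *USP8*, a deubiquitinase that acts on endocytosed receptors, and *CDC37*, a cochaperone of kinases, had −0.11 (adjusted p = 0.0321) and −0.12 (adjusted p = 0.0471), which were lost in 8 and 7 of the 14 other settings. Neither list had a call with AT0174, where 2 and 1 genes had an unadjusted p under 0.05.

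Transcripts that ERK signaling is known to induce were the list with the largest share of calls in suspension among the 8, 7 of 11, where 21.2% of all tested genes were called, and they moved in both directions. With AT0174, edgeR called 1 of the 11 (9.09%, against 0.779% of all tested genes), and 3 had an unadjusted p under 0.05. Log2 fold changes of the list with AT0174 ran from −0.11 to 0.24. *DUSP6*, an ERK phosphatase, was at 131, 135 and 134 CPM in attached cells, 174, 184 and 176 CPM in suspension with vehicle, and 203, 214 and 199 CPM with AT0174. The 3 groups did not overlap. It rose in suspension by 0.42 on the log2 scale (standard error 0.0355, adjusted p = 1.5e-05) and with AT0174 by 0.21 (standard error 0.0349, adjusted p = 0.0134). The second call was lost without suspension vehicle replicate 1 (adjusted p = 0.0793) or 3 (0.0855), without AT0174 replicate 2 (0.0643) and with counts rebuilt from TPM (0.19).

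Higher in suspension were also *CCND1*, the cyclin of entry into the cell cycle (log2 fold change 0.17, adjusted p = 0.003), *SPRED1*, an inhibitor of RAS signaling (0.18, adjusted p = 0.0204), and *DUSP4*, another ERK phosphatase (0.17, adjusted p = 0.0306). Lower were the ephrin receptors *EPHA4*, from 18.1 ± 0.637 to 8.83 ± 0.813 CPM (−1.04, adjusted p = 3.7e-06), and *EPHA2* (−0.36, adjusted p = 0.00987), as well as *PHLDA1* (−0.73, adjusted p = 0.0159). The calls of *SPRED1*, *DUSP4*, *EPHA4* and *PHLDA1* were lost in 3, 6, 1 and 3 of the 14 other settings, that of *EPHA4* with counts rebuilt from TPM (−0.64, adjusted p = 0.0643). With AT0174, edgeR did not call *EPHA4* (0.24, unadjusted p = 0.0084, adjusted p = 0.27) or *DUSP4* (0.15, unadjusted p = 0.0095, adjusted p = 0.29). *ERRFI1* itself is a transcript of this kind, and it fell in suspension while *DUSP6* rose, and rose with AT0174 as did *DUSP6*.

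Of 9 tested neighbors of *ERBB2* on chromosome 17, edgeR called 4 in suspension (44.4%, against 21.2% of all tested genes). With AT0174 none was called by edgeR, DESeq2 or limma-voom, and none had an unadjusted p under 0.05 by edgeR. *MIEN1* rose by 0.18 (adjusted p = 0.0181). It lies on the minus strand at chr17:39728496-39730532, nearly all of it within the span of *ERBB2* on the plus strand. Reads from a stretch that transcripts of both genes share may not be told apart. The leading *ERBB2* transcript, ENST00000269571, ends at 39728658 and so shares only a short end of *MIEN1*. It held 65.8% of *ERBB2* TPM over all libraries, and the positions of the other *ERBB2* transcripts were not examined. *PGAP3*, also on the minus strand, overlaps the other end of the *ERBB2* span but ends at 39696797, before that leading transcript starts at 39700064. How far *ERBB2* shared reads with *MIEN1* or *PGAP3* was not tested. *GRB7*, *ORMDL3* (−0.12, adjusted p = 0.0408) and *GSDMB* (−0.70, adjusted p = 0.0177) were lower. These 4 calls were lost in 4, 6, 7 and 4 of the 14 other settings. In attached cells the mean levels of *STARD3*, *MIEN1*, *GRB7* and *PGAP3* were 167, 118, 70.5 and 19.8 TPM.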

How the data were processed

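Total RNA of 9 cell cultures was sequenced by the authors. Per the labels, reads were processed with Trim Galore 0.6.7, STAR 2.7.9a and Salmon 1.10.1 on GRCh38. The deposited gene table holds estimated counts per gene, summed by the authors from Salmon's transcript values with no normalization. The deposited TPM values, made by the authors with Salmon, divide counts by effective transcript length and were summed by gene here. The library kit is named differently in the labels and in the methods. Strand use is therefore unclear, and reads from stretches that transcripts of overlapping genes share may not be told apart.

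Estimated counts were rounded, filtered with filterByExpr (15528 of 59452 genes kept), scaled by TMM and tested with edgeR 4.0.16 (R 4.3.3), with the group as the only term. Standard errors are the log2 fold change over the square root of the F statistic, intervals are 95%, and edgeR's adjusted p-values cover all tested genes. The study used limma, and limma-voom was an alternative here (limma 3.58.1). The others were DESeq2 1.42.0, its size factors, 2 other filters, the 6 libraries of a contrast only, a replicate block, counts rebuilt from TPM and leaving out each library. For the receptor ratio, TMM-scaled CPM, the leading transcript of each gene, the pairing and leaving out each library were tried. The procedure was tested on simulated data with planted changes larger than those of *ERRFI1*, so the simulation does not bear on its calls. Exact permutation tests used scipy 1.17.1.

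The members, gene lists and tests were chosen with earlier results of these data known. The genes named are all members, up to 4 called genes of smallest adjusted p per list and contrast, and the 3 genes most correlated with each called member. Transcripts named hold at least 10% of a member's TPM. The marker genes, uncalled neighbors and remaining called genes were added after their values were seen. Replicates of a group differed by more than sampling noise.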

Additional observations from a re-analysis of the deposited data

How the results depend on the processing

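Limits: with 3 libraries per group, calls near the threshold depended on single libraries, and depth limits *TGFA*, *HBEGF*, *EREG*, *NRG1*, *EGFR*, *AREG* and *ERBB4*, with at most 177 counts each. The *ERRFI1* directions held under all 14 alternatives in each comparison.

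With counts rebuilt from TPM, the members called fell from 1 to 0 in both comparisons, all genes called were 1396 against 3297 in suspension and 31 against 121 with AT0174, and pathway genes called were 10 against 21 and 0 against 1. With DESeq2, 239 genes and 3 pathway genes were called with AT0174, and with no filter on low counts 499 and 4. Leaving out 1 library gave 1935 to 2693 genes and 10 to 16 pathway genes called in suspension, with 1 member called each time. With AT0174 it gave 63 to 86 genes, 0 to 2 pathway genes and 0 members. The receptor log2 ratio differed by −0.059 to 0.0077 in suspension and by −0.0082 to 0.069 with AT0174 when 1 library was left out.

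Signs of several uncalled members turned. With counts rebuilt from TPM, log2 fold changes were −0.33 for *EGFR* and −0.023 for *ERBB2* in suspension, and 0.031 for *ERBB3* with AT0174. With no filter, *ERBB3* was at 0.0040 in suspension and 0.0029 with AT0174. Leaving out 1 library gave, in suspension, −0.025 to 0.34 for *EGFR*, −0.0014 to 0.035 for *ERBB2*, −0.021 to 0.032 for *ERBB3* and −0.023 to 0.12 for *AREG*. With AT0174 it gave −0.037 to 0.016 for *ERBB3*, −0.23 to 0.058 for *AREG* and −0.34 to 0.20 for *TGFA*. The cause was not tested.

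Same-numbered replicates did not deviate together (correlations from −0.022 to 0.044), and differently numbered ones had correlations from −0.073 to 0.077. Such values cannot show whether same-numbered cultures were handled as pairs. With the replicate block, the log2 fold changes of *ERRFI1* were −0.15 and 0.18, 3250 and 146 genes were called, and no member gained or lost a call. In the pathway lists, *CDC37* (adjusted p = 0.0709) and *PIK3R2* (adjusted p = 0.0613) lost theirs in suspension.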
